A study of Rattus norvegicus with 39 samples.

Results

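The levels of 9 genes that encode chromatin modifiers were followed through the cerebral cortex of ageing rats on different diets: Dot1l, Tet3, Chd5, Chd7, Morf4l1, Kat6a, Brd3, Hdac5 and Bcorl1. They were chosen by name, with the Ensembl identifiers that the study pairs with these names, and were 9 of the 26123 genes counted; all 9 passed the filter on low counts (17230 genes tested). The study picked these names from its own comparisons of these same libraries, so a difference in those comparisons is not independent evidence. RNA came from male BN rats (substrain BN/SsNOlaHSD), and each library pooled 2 rats, so the spread given is that between pools and not between single animals.

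The 39 libraries fall into 13 groups of 3 pools. In AL rats food was freely available, and pools represent ages of 6, 12 and 28 months (6 m AL, 12 m AL, 28 m AL). CR rats (calorie restriction) received 55% of the intake of AL rats and were sampled at the same ages (6 m CR, 12 m CR, 28 m CR). AL+LA rats ate freely a diet with α-lipoic acid, an antioxidant cofactor, at 1.5 g/kg (12 m AL+LA, 28 m AL+LA). In the other groups the diet before the sign > was replaced at 12 months by the one after it, and the rats were sampled at 28 months. Restriction was lifted in CR>AL and CR>AL+LA and begun in AL>CR and AL+LA>CR, whereas CR>CR+LA rats gained LA under lasting restriction. A value in CPM is a gene's read count relative to all reads on genes in its library, with libraries scaled by TMM over all 39; it is not divided by gene length, so levels are compared between groups and not between genes.

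Chromatin modifiers set how tightly DNA is packed and which genes can be read. Acetyl groups placed on histones by acetyltransferases tend to mark open chromatin, are read by bromodomain proteins and are removed by deacetylases, whereas methyl groups on histones or DNA can mark active or silent regions. In neurons these enzymes take part in activity-dependent transcription, and several are needed for normal brain development. Among the members, Dot1l is the methyltransferase of lysine 79 of histone H3, and Tet3 oxidises 5-methylcytosine, the first step of active DNA demethylation. Chd5 and Chd7 are ATP-dependent remodellers of nucleosomes, the former found mainly in neurons. Kat6a is a histone acetyltransferase, Morf4l1 a chromodomain subunit of acetyltransferase and deacetylase complexes, Brd3 a reader of acetylated histones, Hdac5 a class IIa deacetylase that shuttles between nucleus and cytoplasm, and Bcorl1 a corepressor.

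The upstream sequence of 3 members is shown. Dot1l had its highest group means in 6 m AL and 12 m AL (18.8 and 19.9 CPM) and not in 28 m AL (8.00 CPM, rank 10 of 13), Hdac5 had its highest in the AL groups of all 3 ages (47.9, 38.9 and 33.6 CPM from young to old), and Morf4l1 had its lowest in 28 m AL (70.4 CPM). These are the 250 bases before the RefSeq start of each gene in the GRCr8 assembly, 5′ to 3′ on the strand of the gene: Dot1l at chr7:9607096-9607345 (minus strand), Hdac5 at chr10:87688055-87688304 (minus strand) and Morf4l1 at chr8:99544332-99544581 (minus strand). Capitals mark matches, on either strand, to the GC box (GGGCGG), the E-box (CACGTG) and the CCAAT box (CCAAT).
Dot1l: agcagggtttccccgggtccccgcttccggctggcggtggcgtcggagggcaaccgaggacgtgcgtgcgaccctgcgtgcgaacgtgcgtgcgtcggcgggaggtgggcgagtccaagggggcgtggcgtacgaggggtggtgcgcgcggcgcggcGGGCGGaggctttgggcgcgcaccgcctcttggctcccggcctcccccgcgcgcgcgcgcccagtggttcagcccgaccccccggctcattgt
Hdac5: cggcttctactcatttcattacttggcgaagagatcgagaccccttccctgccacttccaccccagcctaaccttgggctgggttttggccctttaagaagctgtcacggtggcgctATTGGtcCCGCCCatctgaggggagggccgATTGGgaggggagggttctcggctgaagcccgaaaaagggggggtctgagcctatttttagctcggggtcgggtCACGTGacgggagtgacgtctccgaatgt
Morf4l1: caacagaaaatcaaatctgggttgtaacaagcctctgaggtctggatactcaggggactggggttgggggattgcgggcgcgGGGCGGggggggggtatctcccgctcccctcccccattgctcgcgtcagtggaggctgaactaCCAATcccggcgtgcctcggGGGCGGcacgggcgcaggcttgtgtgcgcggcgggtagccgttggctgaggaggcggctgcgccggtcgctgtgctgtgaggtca
The Dot1l window held 1 GC box and 40 CpG, against a median of 6 CpG in the 27457 windows of this length; the Hdac5 window held 15 CpG and that of Morf4l1 21. The Hdac5 window held 1 E-box, 1 GC box and 2 CCAAT boxes, all of the last on the opposite strand. In the Morf4l1 window there were 2 GC boxes and 1 CCAAT box. Of all windows, 32.4% held a GC box, 5.79% an E-box and 34.3% a CCAAT box. The cyclic AMP response element (TGACGTCA, in 1.7% of windows) was found in none of the 7 members with an entry; these matches are letters in a window and not sites of binding.

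Reads on genes ranged from 494091 (pool 5 of 12 m AL, in which 1 read was worth 2.02 CPM) to 5966979 per library, with a median of 4005959. Member counts per library had their lowest value at 4 reads, for Dot1l in pool 30 of CR>AL+LA. Libraries from AL rats differed from the others in a technical measure, with 27.5% to 36.1% of reads not aligned against 34.1% to 43.2% for the other diets. What plain AL feeding and what this difference between libraries adds cannot be told apart. Within AL, pools 2, 5, 6, 7 and 9 held 398.6 to 1755 CPM of 5 cerebellar markers summed (Gabra6, Cbln1, Zic2, Fat2 and Car8), against 31 to 44.8 CPM in AL pools 1, 3, 4 and 8 and 25.3 to 98.5 CPM in the 30 pools of other diets. Gabra6, a subunit of the GABA receptor of cerebellar granule cells, was at 126 to 629 CPM in those 5 pools and at 0.29 to 4.97 CPM in the other AL pools. Markers of other cells also moved with age in AL. The cortical neuron markers Neurod6 and Syt1 summed to 249 to 374 CPM in 6 m AL, 237 to 345 CPM in 12 m AL and 183 to 242 CPM in 28 m AL, and the astrocyte markers Gfap and Aqp4 to 1211 to 1452 CPM, 1502 to 1741 CPM and 804 to 841 CPM in that order. The oligodendrocyte marker Mog was at 102 to 127 CPM, 99.8 to 116 CPM and 89.6 to 100.1 CPM, and the microglial marker Aif1 at 9.28 to 14.7 CPM over the 9 pools. Only genes that the study itself reported could be named. Of the markers listed, 5 of 10 cerebellar, 2 of 8 cortical neuron, 2 of 5 astrocyte, 1 of 5 oligodendrocyte and 1 of 5 microglial ones were found. They were thus not picked independently of these libraries. The part of these markers in the results was not tested.

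Dot1l was lower in old than in young AL rats, with no overlap between pools. Its AL pools were at 24.1, 20.7 and 11.4 CPM at 6 months, at 14.8, 16.3 and 28.8 CPM at 12 months, and the old ones held 7.14, 7.83 and 9.03 CPM. All 3 old pools were below every younger AL pool. The log2 fold change was -1.22 (SE 0.312, adjusted p = 0.15) from 6 to 28 months and -1.35 (SE 0.321, adjusted p = 0.0601) from 12 to 28 months (edgeR's quasi-likelihood test, Benjamini-Hochberg adjustment over 17230 genes), so neither passed the threshold of 0.05. Without AL pools 2, 5, 6, 7 and 9 together, in one fit of 34 libraries, the values were -1.19 and -0.92. That fit leaves pool 8 alone at 28 months and pool 4 alone at 12 months. A call lost in it cannot be told apart from lost replication. By edgeR's exact test the adjusted p was 0.0498 and 0.0245, and by DESeq2 0.049 and 0.04998. In CR the pools were at 7.61, 10.4 and 8.17 CPM at 6 months, 12.3, 7.69 and 10.2 CPM at 12 months and 9.69, 6.54 and 8.12 CPM at 28 months. These overlapped at every pair of ages, and the change from 6 to 28 months was -0.13 (SE 0.276, adjusted p = 0.995).

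Tet3 was the one member called between ages by edgeR's quasi-likelihood test. The exact test and DESeq2 each made 4 calls in AL, of Dot1l and Chd5 from 6 to 28 months and of Dot1l and Tet3 from 12 to 28 months. In one fit of all 13 groups, 3 members were called in AL from 6 to 28 months and 2 from 12 to 28 months. The same numbers were called there with the cerebellar markers as a covariate. No share of all genes is given for these alternatives. The AL pools of Tet3 held 34.3, 32 and 23.3 CPM at 6 months, 34.8, 44.7 and 35.4 CPM at 12 months and 13.7, 18 and 17.4 CPM at 28 months. Old pools lay below all younger ones. From 12 to 28 months Tet3 fell by 1.18 on the log2 scale (SE 0.245, adjusted p = 0.0188), 1 call among 9 members where 0.517% of all genes were called. This call was lost without pool 5 of 12 m AL and without pool 7 or 9 of 28 m AL (log2 fold change -1.25 to -1.07 over all libraries left out in turn). Without the same 5 AL pools together, which leaves 1 pool at each of these ages, the value was -0.95. Old against 6-month pools gave a log2 fold change of -0.87 (SE 0.237, adjusted p = 0.18), where 0.0987% of genes were called. CR pools were at 17.6, 14.6 and 20.4 CPM at 6 months, 17.9, 13.8 and 13 CPM at 12 months and 15.3, 8.48 and 9.09 CPM at 28 months. One of the 3 old CR pools lay inside the range of the young ones, and the change was -0.67 (SE 0.254, adjusted p = 0.92) from 6 months and -0.44 (SE 0.253, adjusted p = 0.807) from 12 months.

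Chd5 showed its highest levels in young AL rats. The AL pools were at 162, 153 and 130 CPM at 6 months, 159, 136 and 63.8 CPM at 12 months and 74.9, 102 and 64.6 CPM at 28 months. The old pools lay below those of 6 months, but pool 6 of 12 m AL was lower than any of them. That pool and pools 7 and 9 are the 3 with the highest cerebellar marker sums, and the old pool with a low sum, pool 8, was the highest of the 3 old ones. Its log2 fold change was -0.88 (SE 0.193, adjusted p = 0.123) between 6 and 28 months, and from 12 to 28 months -0.56 (SE 0.252, adjusted p = 0.449), the latter running from -0.89 to -0.19 with 1 library left out and called without pool 6; the exact test and DESeq2 called the first (adjusted p = 0.0197 and 0.00642). Without AL pools 2, 5, 6, 7 and 9, which leaves pool 8 alone at 28 months, the first was -0.52. CR pools of Chd5 held 78.5, 98.7 and 76 CPM at 6 months, 142, 83.5 and 100 CPM at 12 months and 133, 73 and 76.2 CPM at 28 months, with overlap at each pair of ages and a change of 0.15 (SE 0.198, adjusted p = 0.989) from 6 to 28 months.

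**Figure D1:**
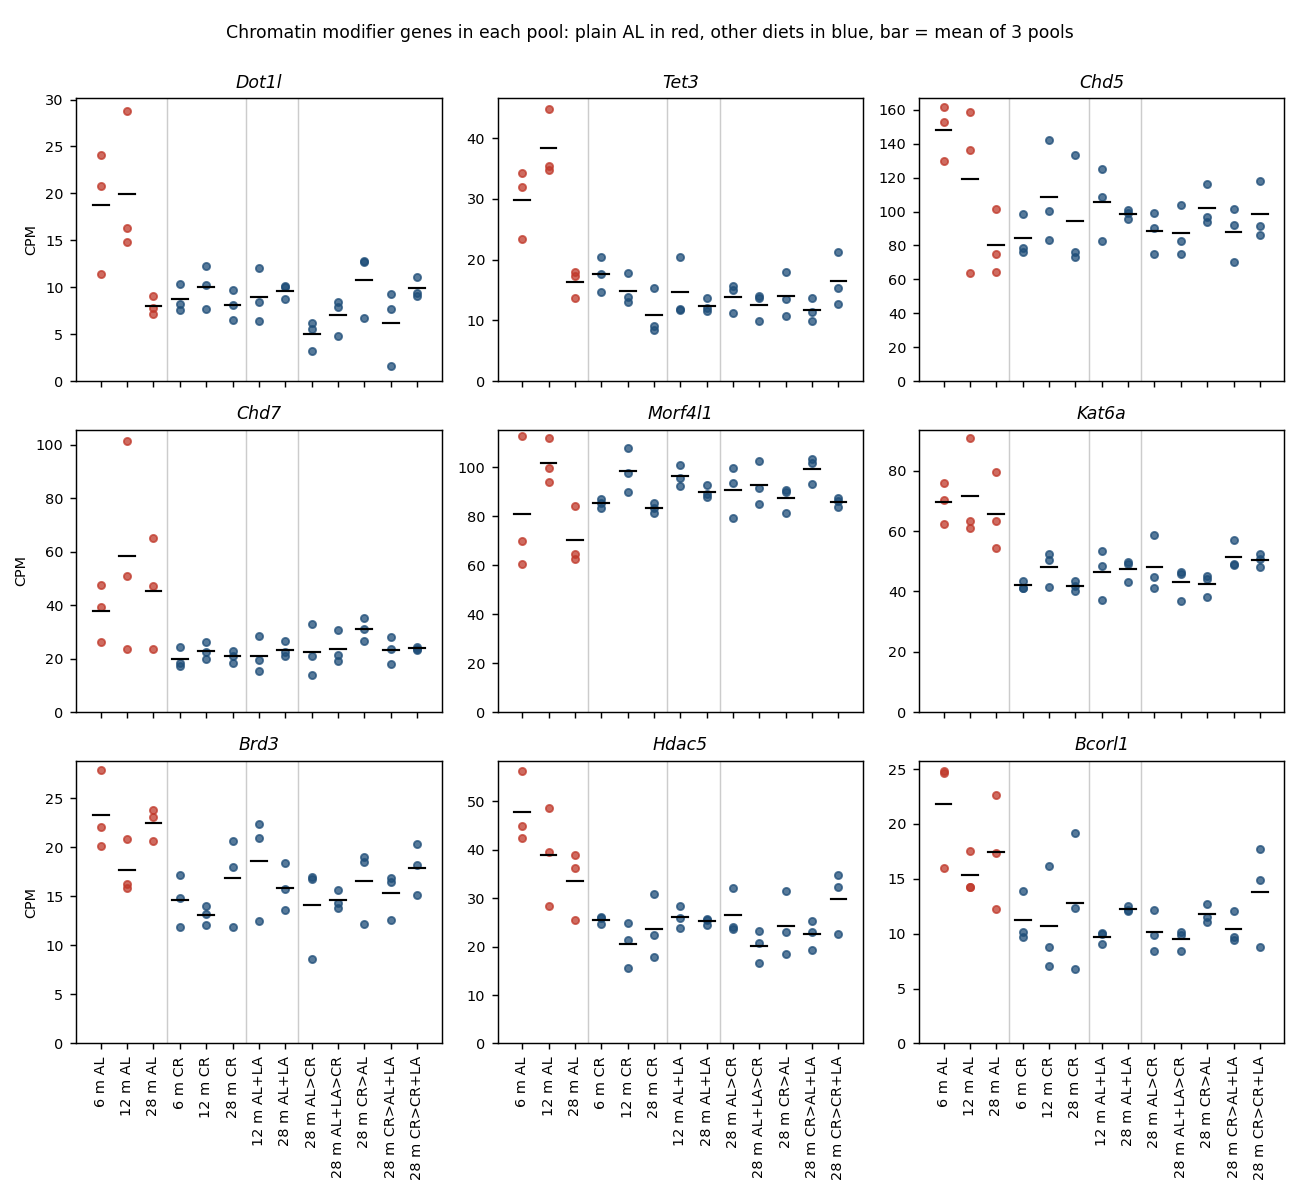
Level of each member in CPM (vertical axis, from 0) in the 3 pools of each of the 13 groups (horizontal axis), with plain AL in red, the other diets in blue and a bar at the mean of 3 pools. All 9 have their highest mean in 6 m AL or 12 m AL, and the ranges of the colours overlap for every member. Chd7 in AL spreads from 23.6 to 101 CPM.

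The other 6 members did not pass any of the 3 tests between ages in AL. Hdac5 had a log2 fold change of -0.51 between 6 and 28 months (SE 0.212, unadjusted p = 0.0284, adjusted p = 0.379), the only one of these whose pools did not overlap over that span. Morf4l1 pools did not overlap from 12 to 28 months, at 94.1, 112 and 99.6 CPM and 84.1, 62.6 and 64.4 CPM (log2 fold change -0.51, SE 0.191, adjusted p = 0.349). Over that span 3 of 9 members had all old pools below the younger ones, as did 7.2% of genes. In all, 4 of 9 members had pools of 28 m AL below those of 6 m AL, where 8.15% of genes did, and the median log2 fold change was -0.34 over the members and 0.01 over all genes. From 6 to 12 months no member was called in AL by edgeR's quasi-likelihood test, by the exact test or by DESeq2, and none had an unadjusted p under 0.05 by any of these, where 0.0987% of genes were called.

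No member was called between ages in CR or AL+LA. Over the 27 values in CR, 0 passed edgeR's quasi-likelihood test, the exact test or DESeq2, and 1 (Tet3 from 6 to 28 months) had an unadjusted p under 0.05 by each; of all genes, 4.87% to 6.75% had such a p, and 0.029% were called in 12 m against 6 m, 0.0522% in 28 m against 6 m and 0.273% in 28 m against 12 m. In AL+LA from 12 to 28 months 0 of 9 were called by any of the 3 tools and 0 had an unadjusted p under 0.05, where 0.0174% of genes were called. That AL and CR differ in their change with age was tested as an interaction over 12 libraries. The CR change minus the AL change from 6 to 28 months was 1.1 (SE 0.416, adjusted p = 0.513) for Dot1l, 1.03 (SE 0.299, adjusted p = 0.434) for Chd5 and 0.2 (SE 0.349, adjusted p = 0.926) for Tet3. For 12 to 28 months it was 1.05 (SE 0.417, adjusted p = 0.444) for Dot1l, 0.73 (SE 0.341, adjusted p = 0.551) for Tet3 and 0.35 (SE 0.390, adjusted p = 0.839) for Chd5. None of the 18 interaction values passed the quasi-likelihood test or DESeq2 (4 had an unadjusted p under 0.05 by each, a level reached by 8.26% and 9% of genes in edgeR), where 0.0116% and 0.383% of genes were called. For no member did the test show that the diets differ in ageing.

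**Figure D2:**
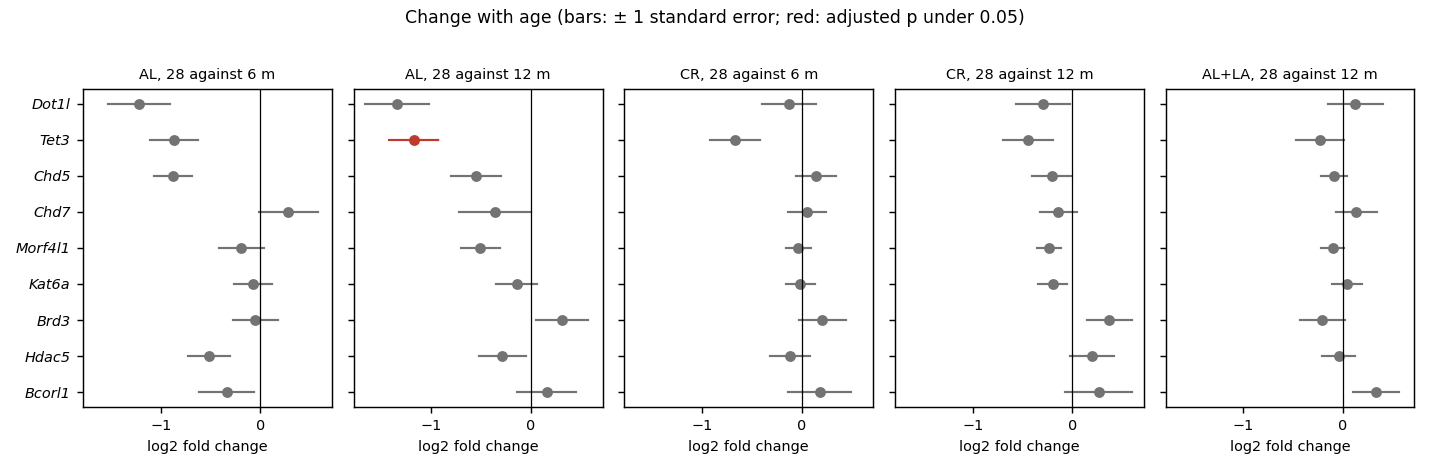
Log2 fold change with age of the 9 members (horizontal axis, points; bars span 1 standard error on each side) in AL, CR and AL+LA, with calls at an adjusted p under 0.05 in red. Dot1l lies furthest left in both AL panels that end at 28 months, only Tet3 from 12 to 28 months is red, and no point is red in CR or AL+LA.

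Set against AL rats of the same age, 8 of the 9 members were lower in CR already at 6 months. Every one of these 8, all but Morf4l1, had its 3 CR pools below the 3 AL pools, where 9.08% of genes did. Hdac5 was at 56.3, 44.9 and 42.4 CPM in 6 m AL, with CR pools at 25.9, 24.6 and 26.2 CPM, and fell by 0.93 on the log2 scale (SE 0.199, adjusted p = 0.0192). Chd5 was at 162, 153 and 130 CPM in AL and 78.5, 98.7 and 76 CPM in CR and fell by 0.82 on the log2 scale (SE 0.173, adjusted p = 0.0172). For Kat6a the AL pools were at 70.3, 75.9 and 62.3 CPM and the CR pools at 43.5, 41.3 and 41.3 CPM, a fall by 0.74 on the log2 scale (SE 0.177, adjusted p = 0.0351). These were the 3 calls by edgeR's quasi-likelihood test, against 2.2% of all genes called and 1.14% called lower, and the CR pools of Kat6a and Hdac5 lay much closer together than those of AL. The other 5 members below AL did not pass it, at log2 fold changes of -1.1 (Dot1l), -0.99 (Bcorl1), -0.92 (Chd7), -0.79 (Tet3) and -0.7 (Brd3), with adjusted p from 0.0597 to 0.191. DESeq2 called 4 of the 9 members (Hdac5, Chd5, Kat6a and Chd7), and the exact test 6, with Dot1l and Bcorl1 besides. The 2.2% of genes called is for the quasi-likelihood test, and no share of all genes is given for these 2 tools. Morf4l1 was at 60.3, 69.7 and 113 CPM in AL and 85.2, 83.4 and 87 CPM in CR, with overlapping pools. The astrocyte markers summed to 831 to 1223 CPM in 6 m CR against 1211 to 1452 CPM in 6 m AL, and Mog was at 145 to 208 CPM against 102 to 127 CPM; their part in these differences was not tested. In whole tissue, fewer cells that express a gene and less RNA per cell cannot be told apart. Reads not aligned were 29.1% to 32.1% in 6 m AL and 40.2% to 40.8% in 6 m CR. This share was not fitted as a covariate at 6 months. Without AL pool 2, the one 6-month AL pool with a high cerebellar marker sum, in the fit that left out all 5 such pools, the log2 fold changes were -0.96 for Hdac5, -0.78 for Chd5 and -0.66 for Kat6a, all 3 called. In the fit on the 6 libraries alone, leaving out any of AL pool 2 and CR pools 10 and 12 ended the call of Chd5 (-0.92 to -0.73), and leaving out any pool but AL pool 3 ended those of Kat6a (-0.78 to -0.67) and Hdac5 (-0.98 to -0.77).

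At 12 months the same direction was seen with both other diets. The AL pools of Tet3 were at 34.8, 44.7 and 35.4 CPM, those of CR at 17.9, 13.8 and 13 CPM and those of AL+LA at 11.9, 11.7 and 20.4 CPM. No pool of CR or AL+LA reached the lowest AL pool. Pools did not overlap for 5 of 9 members in each comparison, and for 19.3% (CR) and 20.6% (AL+LA) of all genes. Tet3 fell by 1.32 on the log2 scale (SE 0.238, adjusted p = 0.0032) in CR and by 1.34 on the log2 scale (SE 0.257, adjusted p = 0.00503) in AL+LA, and both calls held with any library left out. Reads not aligned were 30.4% to 36.1% in 12 m AL, 41.1% to 43.2% in 12 m CR and 39.3% to 41.0% in 12 m AL+LA. This share was not fitted as a covariate at this age. Hdac5 was at 48.5, 28.5 and 39.6 CPM in AL and 24.8, 21.3 and 15.6 CPM in CR and fell by 1.01 on the log2 scale (SE 0.238, adjusted p = 0.0258). This call was lost without AL pool 4 or CR pool 14 or 15 (-1.15 to -0.81). Without all 5 pools of high marker sum the value was -1.24, with 12 m AL then only pool 4, the highest of its 3 pools. In AL+LA Hdac5 was at 28.4, 23.8 and 25.8 CPM, below every AL pool by a narrow margin, and did not pass (log2 fold change -0.67, SE 0.217, adjusted p = 0.0999). Dot1l was at 8.39, 6.44 and 12.1 CPM in AL+LA and fell by 1.21 on the log2 scale (SE 0.329, adjusted p = 0.0466), a call lost without AL pool 5 or 6 or AL+LA pool 37 or 38 (-0.78 without pool 6, and -0.74 without all 5 pools of high marker sum). Against AL, 3 members were called in CR, where 2.16% of genes were, and 3 in AL+LA, where 3.17% were, all of them lower. Both comparisons share the AL libraries. The cortical neuron markers summed to 407 to 487 CPM in 12 m CR and 388 to 425 CPM in 12 m AL+LA, above the 237 to 345 CPM of 12 m AL, and the astrocyte markers, at 825 to 916 CPM and 1031 to 1054 CPM, were below the 1502 to 1741 CPM of 12 m AL. Their part in these differences was not tested.

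The third call with either diet was Chd7, and among the AL pools it rested on pools 5 and 6. Chd7 was at 23.6, 50.8 and 101 CPM in pools 4, 5 and 6 of 12 m AL, 20.1, 22.4 and 26.3 CPM in CR and 15.5, 19.5 and 28.4 CPM in AL+LA. Pool 4 lay within the range of both other diets, whereas pools 5 and 6, with high cerebellar marker sums, lay above it. Chd7 fell by 1.36 on the log2 scale (SE 0.335, adjusted p = 0.0332) in CR and by 1.47 on the log2 scale (SE 0.354, adjusted p = 0.0238) in AL+LA. Both calls were lost without AL pool 5 or 6, that in CR also without CR pool 13 or 14 and that in AL+LA also without AL+LA pool 37 or 38. Without pool 6 the log2 fold changes were -0.43 and -0.56, and without all 5 pools of high marker sum they were -0.037 and -0.16, not called. In that fit Tet3 stayed called, at -1.23 in CR (adjusted p = 0.0461) and -1.26 in AL+LA (adjusted p = 0.0295), with 12 m AL then 1 pool.

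**Figure D3:**
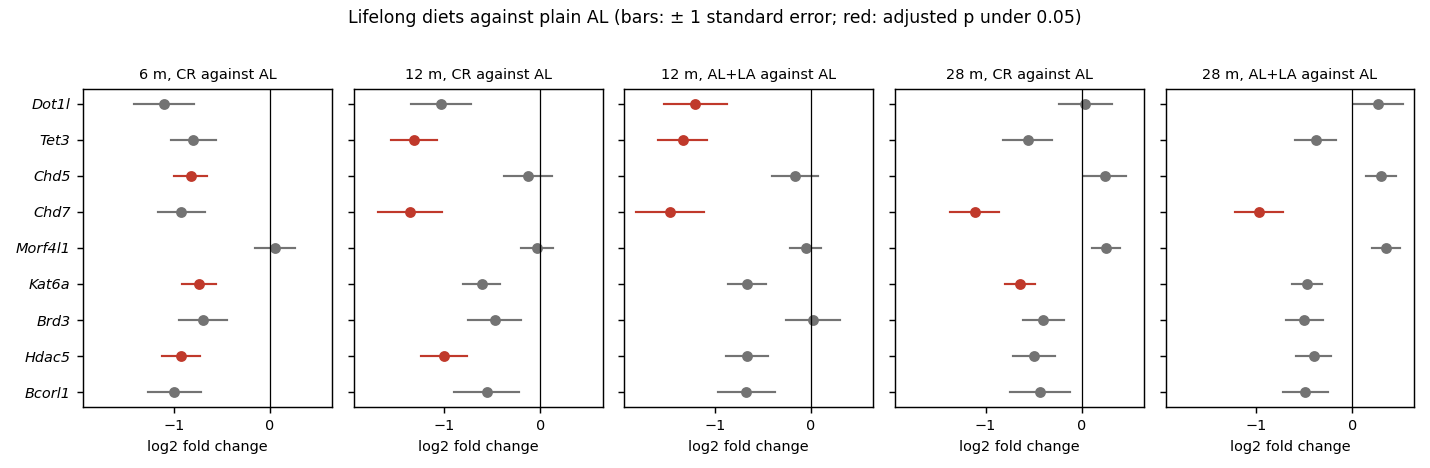
Log2 fold change of the 9 members (points; bars span 1 standard error on each side) in lifelong CR or AL+LA against plain AL of the same age, with calls at an adjusted p under 0.05 in red. Nearly all points lie left of 0 at 6 and 12 months, and Chd7 is red in 4 of the 5 panels, whereas Dot1l and Chd5 lie right of 0 at 28 months.

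At 28 months Chd7 was lower than in AL in the test with 6 of the 7 other diets. The AL pools 7, 8 and 9 were at 47.1, 23.8 and 65.1 CPM. In CR they were at 21.1, 23 and 18.6 CPM, and in AL+LA at 21.1, 26.6 and 22.4 CPM. Pool 8 of AL lay at the level of the other diets, and pools 7 and 9, with high cerebellar marker sums, lay above all of their pools. The few neuron and glial markers that could be named were lower in 28 m AL than in every pool of the 7 other diets. The neuron markers summed to 183 to 242 CPM against 298 to 439.5 CPM and the astrocyte markers to 804 to 841 CPM against 965 to 1611 CPM. Mog was at 89.6 to 100.1 CPM against 113 to 196 CPM and Aif1 at 11.3 to 12.27 CPM against 12.31 to 27.5 CPM. Their part in the differences from 28 m AL was not tested. Chd7 fell by 1.11 on the log2 scale (SE 0.257, adjusted p = 0.0199) in CR, with 4.13% of genes called, and by 0.97 on the log2 scale (SE 0.251, adjusted p = 0.0317) in AL+LA, with 4.82%. The other calls were at log2 fold changes of -0.99 in AL>CR (SE 0.281, adjusted p = 0.0439, 4.85% of genes called), -0.95 in AL+LA>CR (SE 0.261, adjusted p = 0.0388, 4.78%), -0.99 in CR>AL+LA (SE 0.262, adjusted p = 0.029, 5.9%) and -0.94 in CR>CR+LA (SE 0.253, adjusted p = 0.0442, 4.45%). In CR>AL the pools were at 31.1, 26.8 and 35.4 CPM and Chd7 was not called (log2 fold change -0.55, SE 0.246, adjusted p = 0.204). Without AL pools 7 and 9, which leaves 1 AL pool assumed to vary like the other group, the log2 fold change of Chd7 was -0.2 in CR and -0.033 in AL+LA. With the mean log2 CPM of the cerebellar markers as a covariate it was -0.2 and -0.045, and none of the 6 calls of Chd7 remained in either. Each of the 6 was also lost without pool 7 alone and without pool 9 alone, at log2 fold changes no nearer to 0 than -0.58, and each without at least 1 pool of the other diet.

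Over all 39 pools the levels of Chd7 went with the cerebellar markers within AL. In the 5 AL pools of high marker sum Chd7 was at 47.1 to 101 CPM, in the 4 other AL pools at 23.6 to 39.3 CPM, and in the 30 pools of other diets at 13.8 to 35.4 CPM. The AL pools of Kat6a overlapped between the 2 kinds, at 61.0 to 90.9 CPM (median 75.9) where the sum was high and at 54.2 to 70.3 CPM (median 62.8) where it was low, and at 28 months pools 7 and 9 were above pool 8. The 30 other pools of Kat6a lay at 36.7 to 58.5 CPM, 28 of them below the lowest AL pool. For Hdac5 the 4 AL pools of low sum, at 36.3 to 56.3 CPM, were all above the highest pool of another diet, at 34.7 CPM.

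**Figure D4:**
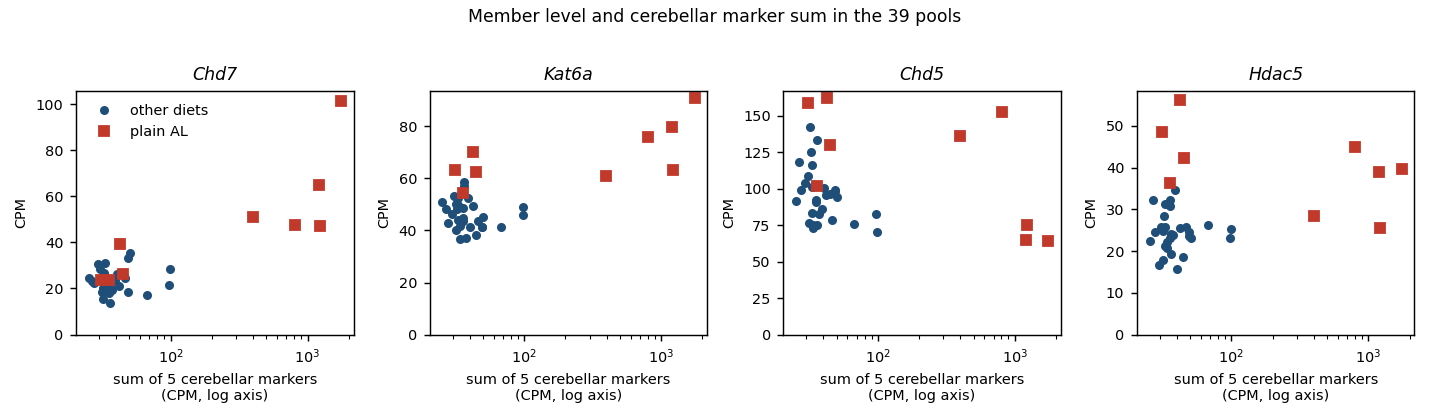
Level of Chd7, Kat6a, Chd5 and Hdac5 in CPM (vertical axes, from 0) against the summed CPM of 5 cerebellar markers (horizontal axes, log scale) in the 39 pools, plain AL as red squares and other diets as blue circles. Chd7 is highest in the 5 AL pools with a sum of 398.6 CPM or more, and AL pool 1, with a low sum, also lies above all other diets (39.3 against at most 35.4 CPM). AL pools with a low sum lie above most other diets for Kat6a and above all of them for Hdac5.

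Kat6a was called lower than in 28 m AL with 3 diets. Its pools were at 63.3, 54.2 and 79.6 CPM in AL, 43.6, 41.7 and 40.0 CPM in CR, 36.7, 46.5 and 45.8 CPM in AL+LA>CR and 44.1, 38.3 and 45.2 CPM in CR>AL. All 9 pools of those diets were below the lowest AL pool. Pools did not overlap for 3 (CR), 5 (AL+LA>CR) and 2 (CR>AL) of the 9 members, and for 21.5%, 22.5% and 25.3% of genes in that order. Kat6a fell by 0.64 on the log2 scale (SE 0.159, adjusted p = 0.0296) in CR, by 0.62 on the log2 scale (SE 0.175, adjusted p = 0.0425) in AL+LA>CR and by 0.62 on the log2 scale (SE 0.161, adjusted p = 0.0235) in CR>AL, where 6.98% of genes were called. Without AL pools 7 and 9 the values were -0.38, -0.33 and -0.35 in that order, with adjusted p of 0.473, 0.62 and 0.412. With the cerebellar covariate, in the fit of all 13 groups, all 3 calls were lost as well, at -0.46, -0.45 and -0.46 (adjusted p = 0.161, 0.118 and 0.116). The calls of Kat6a were lost without AL pool 9 and without CR pool 17 or 18, any AL+LA>CR pool or any CR>AL pool, and in the first pair of diets without AL pool 7 (-0.75 to -0.44 over all 3). Hdac5 was called in AL+LA>CR, at 20.8, 16.6 and 23.2 CPM against 25.5, 36.3 and 38.9 CPM in AL, and fell by 0.74 on the log2 scale (SE 0.205, adjusted p = 0.0401). The call was lost without AL pools 7 and 9 (-0.84, adjusted p = 0.137) or without all 5 pools of high marker sum (-0.85, adjusted p = 0.123). In the fit of all 13 groups it held with the cerebellar covariate (log2 fold change -0.83, adjusted p = 0.0268). It did not hold there with the share of reads not aligned as a covariate (adjusted p = 0.433), under which 0 of the 63 member values against 28 m AL were called. That share was 27.5% to 33.2% in 28 m AL and at least 34.1% in every pool of the other diets. This covariate thus separates AL from the other diets by itself, and the loss of calls with it decides nothing about diet. The call of Hdac5 was also lost without AL pool 8 or 9 or any AL+LA>CR pool (-0.91 to -0.60).

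Morf4l1 went the other way. It was at 84.1, 62.6 and 64.4 CPM in 28 m AL, against 102, 103 and 93.1 CPM in CR>AL+LA, where all 3 pools were above AL, and rose by 0.49 on the log2 scale (SE 0.143, adjusted p = 0.0481). The call was lost without AL pool 9 or any CR>AL+LA pool (0.44 to 0.65) and held without AL pools 7 and 9 together (0.66). It was also lost with the cerebellar covariate (0.5, adjusted p = 0.069), without the 5 pools of high marker sum (0.67, adjusted p = 0.0915) and with the share of reads not aligned as a covariate. In the other 6 diets its log2 fold change against AL was 0.26 to 0.40, above 0 in each and not called. Reads that map to more than 1 place were not counted, and Morf4l1 has a close relative, Morf4l2, so its counts may be incomplete.

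In CR>AL+LA, Kat6a, Brd3, Hdac5 and Bcorl1 were not called against AL. Bcorl1 was at 12.2, 22.6 and 17.4 CPM in AL and 12.1, 9.67 and 9.42 CPM in CR>AL+LA, with no overlap and a log2 fold change of -0.73 (SE 0.255, adjusted p = 0.101). Without AL pools 7 and 9, against the 1 AL pool left, Bcorl1 was called here (-1.12) and in AL>CR (-1.17), AL+LA>CR (-1.25) and CR>AL (-0.94). Hdac5 was at 25.2, 23.1 and 19.2 CPM, below the AL pools (log2 fold change -0.57, SE 0.194, adjusted p = 0.0937). Brd3 was at 23.1, 23.8 and 20.6 CPM in AL and 16.5, 16.9 and 12.6 CPM in CR>AL+LA, again apart (-0.54, SE 0.200, adjusted p = 0.121). In this comparison pools did not overlap for 4 of 9 members and 24% of all genes. They were apart and lower for 3 members and 11.9% of genes. Kat6a was at 49.1, 48.6 and 56.9 CPM and overlapped with AL (-0.36, SE 0.158, adjusted p = 0.196). Dot1l and Chd5, whose AL levels were lowest at 28 months, were not called against 28 m AL with any diet: the log2 fold change of Dot1l ran from -0.65 in AL>CR to 0.42 in CR>AL, and that of Chd5 was above 0 with all 7 diets (0.12 to 0.36).

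Groups that differ in LA alone were compared next, after the switch in CR>AL+LA against CR>AL and before it in AL+LA>CR against AL>CR. In CR>AL+LA against CR>AL, Morf4l1 was at 102, 103 and 93.1 against 81.4, 89.7 and 90.9 CPM, with no overlap, and its log2 fold change was 0.2 (SE 0.108, adjusted p = 0.621). Kat6a was at 49.1, 48.6 and 56.9 against 44.1, 38.3 and 45.2 CPM, also apart, with 0.29 (SE 0.135, adjusted p = 0.547). Where pools did not overlap for 2 of 9 members, they did not for 13.8% of all genes. Brd3, Hdac5 and Bcorl1 overlapped, at -0.068 (SE 0.220), -0.068 (SE 0.193) and -0.16 (SE 0.243), with adjusted p of 0.966, 0.958 and 0.914. In AL+LA>CR against AL>CR, Hdac5 was at 20.8, 16.6 and 23.2 against 23.5, 32.2 and 24 CPM, all 3 pools lower, with a log2 fold change of -0.41 (SE 0.191, adjusted p = 1). The other 4 of these members overlapped, with log2 fold changes of 0.042 (SE 0.130) for Morf4l1, -0.16 (SE 0.159) for Kat6a, 0.02 (SE 0.238) for Brd3 and -0.097 (SE 0.256) for Bcorl1, all with an adjusted p of 1. In this comparison pools did not overlap for 1 of the 9 members and for 8.55% of all genes.

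No member was called in any of the 7 comparisons at 28 months that leave out plain AL. Of these 63 values, 0 passed edgeR's quasi-likelihood test, the exact test or DESeq2, and 6, 5 and 1 in turn had an unadjusted p under 0.05. In edgeR's quasi-likelihood test 2.91% to 8.61% of all genes had such a p. The shares of genes called were 0.429% (CR>AL+LA against CR>AL), 0.0058% (AL+LA>CR against AL>CR), 0.116% (CR>AL against CR) and 0.0348% (CR>AL+LA against AL+LA>CR), and 0% in CR>AL+LA against AL+LA, in CR>CR+LA against CR and in AL+LA against CR. The smallest unadjusted p was that of Chd7 in CR>AL, at 31.1, 26.8 and 35.4 CPM against 21.1, 23 and 18.6 CPM in CR, with no overlap (log2 fold change 0.56, SE 0.172, adjusted p = 0.583). In that comparison pools did not overlap for 1 of the 9 members and for 10.7% of all genes. Dot1l had its lowest group mean in AL>CR, at 5.57, 6.17 and 3.2 CPM, and its lowest pool in CR>AL+LA, at 9.33, 7.69 and 1.57 CPM, the last from 4 reads. The diets that the study groups as long-lived (CR, AL>CR and CR>AL+LA) were also set against AL+LA, AL+LA>CR and CR>AL over 18 libraries. None of the 9 members was called, by edgeR's quasi-likelihood test or DESeq2 (1 with an unadjusted p under 0.05 by each, Dot1l, for which DESeq2 gave no adjusted p; in edgeR it was at -0.46, SE 0.205, adjusted p = 0.726), where 0.0348% of genes were. With 28 m AL among the latter diets (21 libraries) 0 were called and 2 had an unadjusted p under 0.05 by each tool, Dot1l and Chd7, where 0.226% of genes were called.

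**Figure D5:**
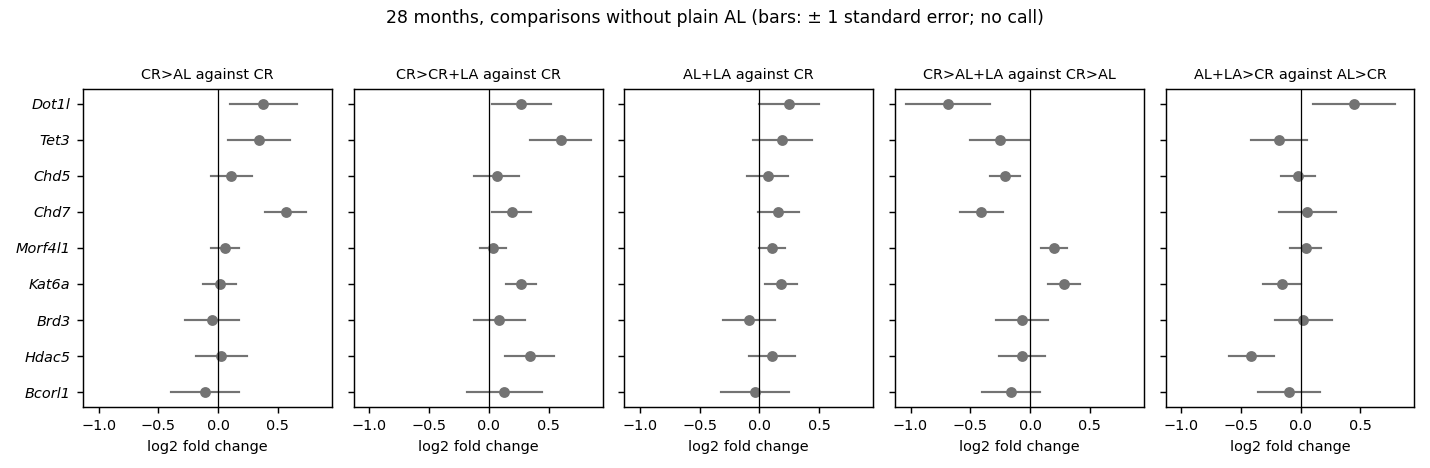
Log2 fold change of the 9 members (points; bars span 1 standard error on each side) in 5 of the comparisons at 28 months that hold no plain AL library. No point is a call, and Chd7 in CR>AL against CR lies at 0.56.

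Ordered by group mean, all 9 members were highest in 6 m AL or 12 m AL. Tet3 ran from 10.9 CPM in 28 m CR to 38.3 CPM in 12 m AL, and Dot1l from 4.98 CPM in 28 m AL>CR to 19.9 CPM in 12 m AL. Hdac5 had means of 20.2 CPM (28 m AL+LA>CR) to 47.9 CPM (6 m AL), Bcorl1 of 9.49 CPM (28 m AL+LA>CR) to 21.8 CPM (6 m AL), Brd3 of 13.1 CPM (12 m CR) to 23.3 CPM (6 m AL) and Kat6a of 41.8 CPM (28 m CR) to 71.7 CPM (12 m AL). Chd5 went from 80.4 CPM in 28 m AL to 148 CPM in 6 m AL, Chd7 from 20.0 CPM in 6 m CR to 58.6 CPM in 12 m AL, and Morf4l1 from 70.4 CPM in 28 m AL to 102 CPM in 12 m AL. For Chd5, Morf4l1, Brd3 and Bcorl1 no neighbours in the order were further apart than their pooled SD, and for the other 5 members 1 or 2 of the 12 pairs of neighbours were.

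Across the 39 libraries the members other than Morf4l1 varied together. Over their 28 pairs Pearson's r of log2 CPM had a median of 0.51 (-0.03 to 0.76), and over the 30 libraries without plain AL a median of 0.28. The 8 pairs with Morf4l1 had a median of -0.17. These libraries share their groups and the difference in reads not aligned, so the values are a description. Among 1583 genes with a name and at least 10 CPM on average, the one most like Tet3 was Atn1 (r = 0.893, Spearman's rho = 0.80 over 39 libraries), then Prrc2a (0.872) and Cnnm1 (0.857). Dot1l was closest to Nat8l (0.748), Prrc2a (0.714) and Shank3 (0.714), and Chd5 to Etl4 (0.806) and Epb41l1 (0.788). The genes most like Chd7 were Mtus1 (0.855), Slc43a2 (0.851) and Tspan9 (0.848). For Hdac5 they were Mcf2l (0.823), Zmiz2 (0.813) and Ttyh3 (0.795), and for Bcorl1 Hdac5 (0.764), Tacc2 (0.757) and Mll2 (0.738). Kat6a was closest to RGD1560470 (0.835), Btbd3 (0.831) and Itpr1 (0.831), Brd3 to Tecpr1 (0.676) and Cacng7 (0.648), and Morf4l1 to Anxa4 (0.733), Gcfc1 (0.730) and Topors (0.725).

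Only 8 further genes of the complexes these members belong to could be matched to an identifier, all of them genes that the study itself reported: Mta2 of NuRD, Meaf6, Yeats4 and Phf12 of the complexes that hold Morf4l1, Crebbp, Brpf3 and Brd1 among the acetyltransferases and their partners, and Yaf2 of the BCOR complex. By edgeR's quasi-likelihood test, the one tool run on them, 0 of 56 values between ages were called. An unadjusted p under 0.05 was reached by 7 of 24 values in AL, 2 of 24 in CR and 1 of 8 in AL+LA. Of all genes, 4.56% to 11.4%, 4.87% to 6.75% and 4.41% had such a p in that order. In the comparisons without plain AL, 0 of 56 were called and 4 had an unadjusted p under 0.05, as had 2.91% to 8.61% of genes. Against AL, Yaf2, a Polycomb partner protein, was higher in all 7 diets at 28 months, with log2 fold changes of 0.51 (AL+LA) to 0.74 (CR), and in 12 m AL+LA (0.68, SE 0.188, adjusted p = 0.048). Crebbp, the acetyltransferase CBP, was lower in 6 m CR (-0.82, SE 0.168, adjusted p = 0.0149), 12 m CR (-0.68, SE 0.165, adjusted p = 0.0308), 12 m AL+LA (-0.68, SE 0.167, adjusted p = 0.0259) and AL>CR at 28 months (-0.57, SE 0.159, adjusted p = 0.0421). Meaf6 and Yeats4, subunits of acetyltransferase complexes, were each higher in 3 of the 7 diets at 28 months (Meaf6 0.84 to 0.90, Yeats4 0.99 to 1.09), and Mta2 (-0.80 and -0.62) and Brd1 (-0.54 and -0.71) were each lower in 2. Brpf3 and Phf12 were not called. Of 14 other genes that the study lists under chromatin, 7 were lower and 1 was higher in 28 m CR than in 28 m AL, where 4.13% of genes were called, and 8 were lower and 1 higher in 28 m AL+LA, where 4.82% were, and 0 were called against AL at 6 or 12 months by edgeR's quasi-likelihood test (12 of 42 values with an unadjusted p under 0.05); the study chose them on these samples, and no alternative was run on them.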

How the data were processed

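RNA from 39 pools of rat cerebral cortex was depleted of ribosomal RNA and sequenced on a SOLiD 5500XL. The authors aligned reads with Bowtie to rn5, dropped reads that map to several places and deposited HTSeq counts per Ensembl gene, not normalized. Of the aligned reads, 79.9% to 84.0% lay on no gene and stayed out of library sizes. Names came from 1671 identifiers that the study pairs with symbols. Members and lists were chosen with earlier results of these data known. Genes with at least 1 CPM in 3 libraries were kept, and each comparison was fitted on its own libraries with edgeR 4.0.16 in R 4.3.3 (TMM, quasi-likelihood test, two-sided, Benjamini-Hochberg adjustment, threshold 0.05). The SE is the log2 fold change divided by the square root of F. The scripts were tested on simulated counts for 28 m CR against 28 m AL, with 200 genes changed by 1 on the log2 scale. The main test found 59% of them with 12 false calls, or 86% with 15 where the changed genes had at least 10 CPM. With no gene changed it made 4 calls. A missing call can therefore be a missed change, and a call can be a false one. Alternatives were DESeq2 1.42.0, edgeR's exact test, other filters and scaling, covariates and libraries left out. Covariates were entered only in one fit of all 13 groups. Values are printed for every called member and for comparisons named for each member; likeness is the 3 highest Pearson r among named genes, some of which are not reported here. No 2 libraries of a group agreed within counting noise (lowest chi-square per degree of freedom 2.98).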

Additional observations from a re-analysis of the deposited data

How the results depend on the processing

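No paired analysis was possible because the groups share no replicate numbers. Of the 58 results, DESeq2 size factors kept all 58 on their side of the threshold, DESeq2 51 and edgeR's exact test 49 of 52. The 1 call between ages in AL became 4 by the exact test, by DESeq2 and without a filter, 5 in one fit of all 13 groups and with the cerebellar markers as a covariate, and 0 to 2 with 1 library left out. Against AL at 28 months, 11 calls became 6 with at least 10 counts in every library, a filter that drops Dot1l, Brd3 and Bcorl1. They became 6 in one fit of all 13 groups, 1 with the cerebellar covariate in that fit and 0 to 17 with 1 library left out. Without AL pools 7 and 9 the calls were those of Morf4l1 and Bcorl1 given above, and Bcorl1 was not among the 11. At 6 and 12 months, 9 calls became 14 without a filter, 15 in one fit of all groups and 6 to 12 with 1 library left out. Without a filter, 1 interaction (Chd5) and 1 member of the 21-library contrast (Chd7) were called where 0 had been. Among alternatives chosen after seeing the data, the AL ageing calls were 0 without pools 7 and 9, 5 with the share of reads not aligned as a covariate and 0 without AL pools 2, 5, 6, 7 and 9, and the 28-month calls were 0 in both of the last. Without pools 7 and 9, 28 m AL is pool 8 alone, so a call lost there cannot be told apart from lost replication. The share of reads not aligned separates 28 m AL from every pool of the other diets, so 28-month calls lost with that covariate decide nothing about diet. Shares of all genes called under these settings are not given, so the counts of members have none beside them. The cause of these shifts was not tested.

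Directions turned for values that were not called or rested on few pools. Dot1l from 6 to 12 months in AL was at -0.022 with the cerebellar covariate and -0.27 without the 5 pools, and Chd5 there at 0.12 without them. Chd7 against 28 m AL was at 0.0050 in AL+LA>CR without pools 7 and 9, and in CR>CR+LA at 0.029 with the cerebellar covariate and 0.0057 without the 5 pools. With 1 library left out, the log2 fold changes from 6 to 12 months in AL ran from -0.28 to 0.37 for Dot1l and -0.66 to 0.031 for Chd5. In CR they ran from -0.26 to 0.047 for Dot1l and -0.19 to 0.30 for Chd5 from 6 to 28 months, and -0.54 to 0.042 for Chd5 from 12 to 28 months. Interactions ran from -0.088 to 0.36 for Tet3 from 6 months and -0.049 to 0.70 for Chd5 from 12 months. In CR>AL+LA against CR>AL the ranges were -0.26 to 0.039 for Brd3 and -0.24 to 0.15 for Hdac5, and in AL+LA>CR against AL>CR -0.044 to 0.11 for Morf4l1, -0.21 to 0.18 for Brd3 and -0.22 to 0.054 for Bcorl1. Depth limits Dot1l, Brd3 and Bcorl1 most, with 7 or 8 reads each in pool 5 of 12 m AL, and counting error alone is then large.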
